A study of Mus musculus with 18 samples.

Results

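The subunit genes of the TCP1 ring chaperonin (TRiC, also called CCT) were examined in RNA-seq of round spermatids (RS) from WT, GRTH-KO and GRTH-KI mice. The 9 genes, Tcp1, Cct2, Cct3, Cct4, Cct5, Cct6a, Cct6b, Cct7 and Cct8, were selected on their membership of this complex and because Tcp1 was among the genes with the most counts (chosen by its mean CPM, read counts scaled to library size, over the libraries), so the level of Tcp1 is given as a description only. They are 9 of the 54232 genes in the deposited table, and all 9 were among the 21058 genes that passed the filter on low counts. RS were isolated from testes of mice 75 to 85 days old, 6 libraries were made for each genotype (18 in all), and RNA was not selected for polyA tails. KO mice lack GRTH (DDX25), a germ cell RNA helicase that is needed for RS to elongate. KI mice carry a human GRTH gene with a missense mutation and lack the phosphorylated form of the protein. A replicate is a library, and nothing in the labels says which libraries came from separate mice, so the p-values measure only the spread between these libraries.

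Chaperonins are barrels made of stacked rings that enclose an unfolded protein and use ATP to fold it. In TRiC each ring holds 1 copy of each type of subunit, from alpha, encoded by Tcp1, to theta, encoded by Cct8, and its best known clients are actin and tubulin, which spermatids need in quantity for the manchette, the flagellum and the acrosome. Zeta is encoded by a pair of genes, Cct6a, which is used in most tissues, and Cct6b, which is enriched in testis. Tcp1 takes its name from the t-complex of mouse chromosome 17, where the gene lies.

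Libraries held between 18766971 and 26776555 counts. Ddx25, the gene of the mutated helicase, lay between 538 and 607 CPM (here scaled for library composition) in WT and between 47.7 and 90.9 CPM in KO. In KI it was between 0.0456 and 0.519 CPM in 5 libraries and 56.9 CPM in the library labelled KI 4, which goes against its label, and the KI results of the subunits, and the listed genes whose call or level it sets, are therefore given with and without that library. Counts of 6 pairs of libraries within a genotype (WT 1 and 2, WT 3 and 4, WT 5 and 6, KO 4 and 5, KI 1 and 2, KI 3 and 5) resembled each other more than those of other libraries, as did KO 2 and the library labelled KI 4. RS markers were present in every library, with a median summed level of 1104 CPM in WT, compared with 902 CPM in KO and 833 CPM in KI. Of these 6 markers Crem fell in KO and 3 (Crem, Sun5 and Tssk1) fell in KI. All 7 markers of elongating spermatids were lower in KO and in KI, with sums of 13901 to 19346 CPM in WT, compared with 1626 to 4080.0 CPM in KO and 2145 to 3342 CPM in KI, and none was at 0 in all libraries of a genotype. The authors describe Prm2 and Tnp2, which are among these markers, as already transcribed in RS, so the sum is not a measure of elongating cells alone. All 6 Leydig cell markers were higher in both, with sums of 9.76 to 19.7 CPM in WT, compared with 29.9 to 52.0 CPM in KO and 13.4 to 66.1 CPM in KI. Fewer cells of a type and less RNA per cell cannot be told apart in such samples.

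The subunit genes are spread over 8 chromosomes, and the sequence next to their starts shows what they share. RefSeq start sites on GRCm38 (mm10) were held for 8 of the 9 genes, all but Cct4, and the 250 bases before the first start of each were searched. The GC box, a common element of promoters that work in most tissues, was searched as GGGCGG on both strands and was found in 7 of the 8 windows, against 32.7% of the windows of 32851 start sites (32.9% of the first windows of 27025 genes). Cct6b was the gene without it. The median share of G and C bases was 52.4% over all windows. Those of the 8 genes, all but Cct5 (45.2%), lay above this, up to 66.4% in Cct7, and the comparison was not adjusted for base composition. The 30 bases around the GC box nearest the start are shown here to compare the 7 genes, with the GC box and any CCAAT in capitals, 5′ to 3′ on the strand of the gene (CCGCCC is the GC box read on the other strand), with positions on GRCm38:
Tcp1 (chr17:12916211-12916240, plus strand): cgttgaggcggaGGGCGGgacacgctagcc
Cct2 (chr10:117063880-117063909, minus strand): ccaactgaggtcCCGCCCcttctccagcga
Cct3 (chr3:88297029-88297058, plus strand): ttcttgcgtagaGGGCGGggctaatactgt
Cct5 (chr15:31602067-31602096, minus strand): cttagagcccGGGCGGcaatcaaagaaaag
Cct6a (chr5:129787294-129787323, plus strand): aagCCAATcagcGGGCGGcaggagggtcgc
Cct7 (chr6:85451475-85451504, plus strand): gcgcctcccggaacctgcggtGGGCGGctc
Cct8 (chr16:87495900-87495929, minus strand): tgcaggttgaagGGGCGGggcgaccggaag
In Tcp1 the GC box began 106 bases before the start, and a CCAAT lay 132 bases before it. CCAAT, searched on both strands, was found in 4 of the 8 windows and in 33.8% of all windows. The heat shock element GAANNTTC was in none of these 8 windows (6.69% of all), nor was the cAMP response element TGACGTCA (1.55%) or the TATA box TATAAA (12.4%). Cct2 and Cct5 have a second start in the table, and there the window of Cct2 held a heat shock element, 42 bases before the start, and that of Cct5 no GC box. The window of Cct6b, chr11:82764322-82764571 on the minus strand, held none of the 5 motifs and is therefore printed in full without capitals:
Cct6b: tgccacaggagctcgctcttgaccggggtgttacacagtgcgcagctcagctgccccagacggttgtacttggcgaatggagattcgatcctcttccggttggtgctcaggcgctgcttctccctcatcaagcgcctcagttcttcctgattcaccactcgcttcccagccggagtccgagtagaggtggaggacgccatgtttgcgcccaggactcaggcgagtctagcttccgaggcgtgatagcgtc
The window of Cct8, chr16:87495870-87496119 on the minus strand, is shown because Cct8 is the subunit gene with the highest KO and KI levels relative to WT in the values that follow, with its GC box in capitals:
Cct8: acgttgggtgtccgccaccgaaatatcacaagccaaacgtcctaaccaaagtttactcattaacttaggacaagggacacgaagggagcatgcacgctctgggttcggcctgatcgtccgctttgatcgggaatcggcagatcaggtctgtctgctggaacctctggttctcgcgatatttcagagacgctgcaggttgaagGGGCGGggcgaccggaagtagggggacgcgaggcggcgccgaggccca
A match of letters is a description of the window and was not tested as a binding site.

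The windows had another feature in common, noticed once the sequences had been read. In 7 of the 8 genes the window held an exon of a gene on the opposite strand, against 15.9% of all 32851 windows (16.4% of first windows). These 7 neighbours start head to head with the chaperonin gene. The shares over all windows count any exon on the other strand, wherever its gene starts, and head-to-head starts alone were not counted. Cct2 was the exception. The neighbours were Mrpl18, of the mitochondrial ribosome, beside Tcp1, Tsacc, a co-chaperone of a testis kinase, beside Cct3, and Fam173b beside Cct5. Psph, a phosphatase of serine synthesis, lay beside Cct6a, Zfp830 beside Cct6b, Pradc1 beside Cct7 and the non-coding B130034C11Rik beside Cct8. The window of Tcp1 lay wholly in an exon of Mrpl18, and 227 of the 250 bases before Cct6b were in the exon of Zfp830. Counting was strand-specific, so reads of the opposite gene were not counted for the subunit.

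Tcp1 had by far the most counts of the 9 genes (chromosome 17, 12915701 to 12925067, ENSMUSG00000068039). Its level was 2837 to 4944 CPM in WT with a median of 3612, 2802 to 3682 CPM in KO with a median of 3052, and 2168 to 4199 CPM in KI with a median of 3162. It ranked 9 of the 21058 genes by mean CPM, and between 6 and 12 in any one library. Of the other genes, Cct7 was next (rank 172), followed by Cct5 (226), Cct2 (234), Cct3 (427), Cct4 (549), Cct6b (812), Cct8 (1043) and Cct6a (2553). The 9 genes together took 0.607% ± 0.119 of all counts in WT, compared with 0.576% ± 0.0549 in KO and 0.580% ± 0.141 in KI (SD, n = 6 each).

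Levels were compared between genes per kilobase (kb) of exon, since a longer gene gives more counts. In WT, Tcp1 was at 751 ± 177 CPM per kb (SD, n = 6), which was 48.1% ± 1.84 of the sum over the 9 genes. The next were Cct2 (215 ± 69.4 CPM per kb), Cct5 (175 ± 27.0), Cct6b (134 ± 9.73), Cct7 (76.5 ± 7.13), Cct4 (71.7 ± 15.6), Cct3 (54.1 ± 13.01), Cct8 (52.2 ± 15.5) and Cct6a (24.7 ± 3.99). In this order the library ranges of Cct2 and Cct5 overlapped, as did those of Cct7 and Cct4, of Cct4 and Cct3, and of Cct3 and Cct8. The ranges of Tcp1 and Cct2, of Cct5 and Cct6b, of Cct6b and Cct7 and of Cct8 and Cct6a did not. Tcp1 thus stood apart from all other subunits in CPM per kb, and Cct6a lay below them. The order of the middle depends on the length taken: with the longest coding transcript in place of all exons (the longest transcript for Cct6a), Cct7 (212 CPM per kb) and Cct3 (174) lay above Cct6b (140.0) in WT, while Tcp1 (1545) and Cct6a (36.5) kept their places at the ends.

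**Figure D1:**
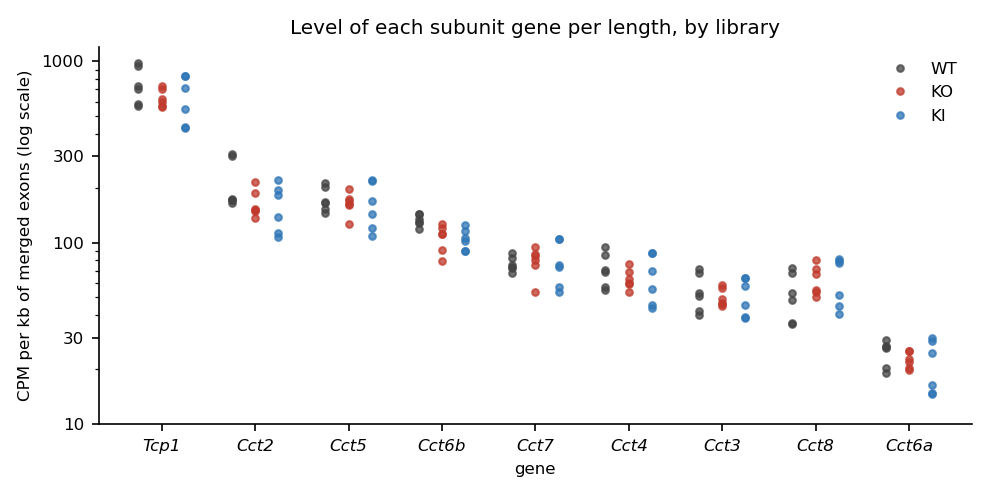
Level of the 9 chaperonin subunit genes in CPM per kb of merged exons on a log axis, with 1 point per library (6 in each of WT, KO and KI). Tcp1 lay between 431 and 983 CPM per kb over all 18 libraries, above every other subunit, and Cct6a between 14.7 and 29.7.

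The zeta subunit is the one for which spermatids have a choice of genes. Cct6b (chromosome 11, 82719250 to 82764321, ENSMUSG00000020698) was at 134 ± 9.73 CPM per kb in WT and Cct6a (chromosome 5, 129786998 to 129846371, ENSMUSG00000029447) at 24.7 ± 3.99 (SD, n = 6). Cct6b made up 84.3% ± 2.77 of the zeta transcripts per kb in WT, compared with 82.2% ± 3.52 in KO and 83.2% ± 3.84 in KI (84.2% ± 3.37 without the library labelled KI 4, n = 5). The share lay between 77.6% and 87.7% in all 18 libraries, so the testis paralog was the larger in each of them, and the genotypes overlapped. Their transcripts were 76.6% identical over 1184 aligned bases. The longest coding transcript of each subunit (the longest transcript for Cct6a) was also searched against all annotated transcripts. Hits were same-strand alignments of 100 bases or more at 95% identity or more over the alignment. Apart from Gm5380, a pseudogene of Cct7 with at most 2 counts in a library, no other gene in the deposited table had such an alignment. The gene model of Cct6a in the annotation used for transcript lengths has no coding transcript, so its transcript length is less certain than the others. Its merged exon length came with the deposited counts. With the longest coding transcript in place of all exons (the longest transcript for Cct6a), the share of Cct6b was 79.3% in WT, 76.6% in KO and 78.0% in KI. Gm11420, a pseudogene on the same strand within the span of Cct6b, had 3.91 to 15.3 CPM.

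Within WT and KI most subunit genes were high and low in the same libraries. In WT, 7 of the 9 genes (Tcp1, Cct2, Cct3, Cct4, Cct5, Cct7 and Cct8) were highest in WT 3 and WT 4 and lowest in WT 1 and WT 2, an order found in 7.44% of all genes. Cct6a was also lowest in WT 1 and WT 2. Cct6b differed, with its lowest levels, 223 and 239.7 CPM, in WT 4 and WT 3, and its highest in WT 2 and WT 5. In KI, 8 of the 9 were lowest in KI 3 and KI 5, as were 25.5% of all genes, and Cct6b was lowest in KI 3 and the library labelled KI 4. In KO the order was more mixed, and KO 2 and KO 6 were the highest for 4 of the 9 (Tcp1, Cct3, Cct4 and Cct6a), as for 7.72% of all genes. These libraries include the close pairs, so the points are not independent of one another. The SD of log2 CPM within genotypes was between 0.30 and 0.39 for the 8 other subunits and 0.19 for Cct6b, against a median of 0.28 over the 3864 genes with a mean of 50 CPM or more. Within the close pairs the SD was 0.029 for Tcp1 and 0.083 for Cct6b.

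**Figure D2:**
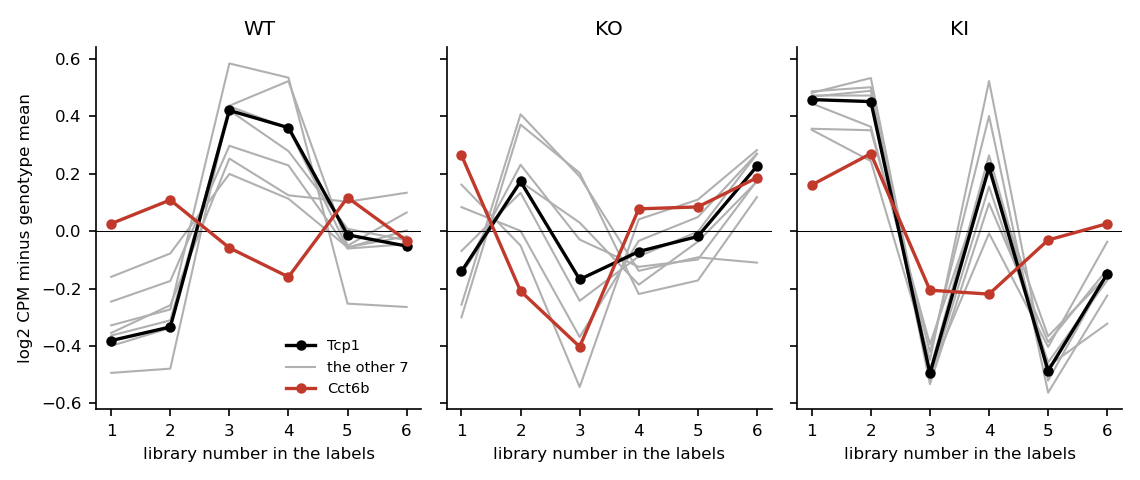
Log2 CPM of each subunit gene in each library minus its mean over the 6 libraries of the genotype, with Tcp1 in black, Cct6b in red and the other 7 in grey. Lines join the values of 1 gene and library numbers have no order; Tcp1 and most other subunits are high in WT 3 and 4 and low in KI 3 and 5, where Cct6b moves less or the other way in WT.

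Genes with a pattern like that of Tcp1 were sought among the 8517 genes with a mean of 10 CPM or more, by the root mean square difference of their centred log2 CPM over the 18 libraries. The 5 nearest were Eif3h, of a translation initiation factor (0.052), Cct4 (0.059), Skp1a, of the SCF ubiquitin ligase (0.066), Mzt2, of the gamma-tubulin ring complex (0.069), and Cox6a1, of cytochrome c oxidase (0.070), against a median of 0.42 over all genes. Cct3 ranked 45 in this list, Cct6a 81, Cct5 121, Cct2 516, Cct7 772, Cct8 1764 and Cct6b 2411. Cct4 was thus the subunit most like Tcp1 and Cct6b the least.

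The first question was whether loss of GRTH, or of its phosphorylated form, changed the level of the subunit genes. Cct6b, lower in both mutants, was the only subunit that passed the test with all 18 libraries. Against WT, 1 of the 9 genes was called in KO, with 29.9% of all tested genes called (16.4% higher and 13.5% lower). Likewise 1 of the 9 was called in KI, with 31.6% of all genes called (16.1% higher and 15.4% lower). The calls are at an adjusted p under 0.1 (edgeR's quasi-likelihood test, Benjamini-Hochberg over all 21058 genes), and both comparisons share the WT libraries. The median log2 fold change of the 9 was -0.13 in KO and -0.14 in KI, beside 0.026 and 0.054 over all genes. No subunit passed when a change of more than 1 log2 unit was asked for (0 of 9 in KO, KI, and KI against KO, with 0 at an unadjusted p under 0.05), which 1.73% of all genes passed in KO and 1.95% in KI. No subunit had libraries of KO or KI wholly outside the range of WT, against 13.1% and 13.9% of all genes.

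**Figure D3:**
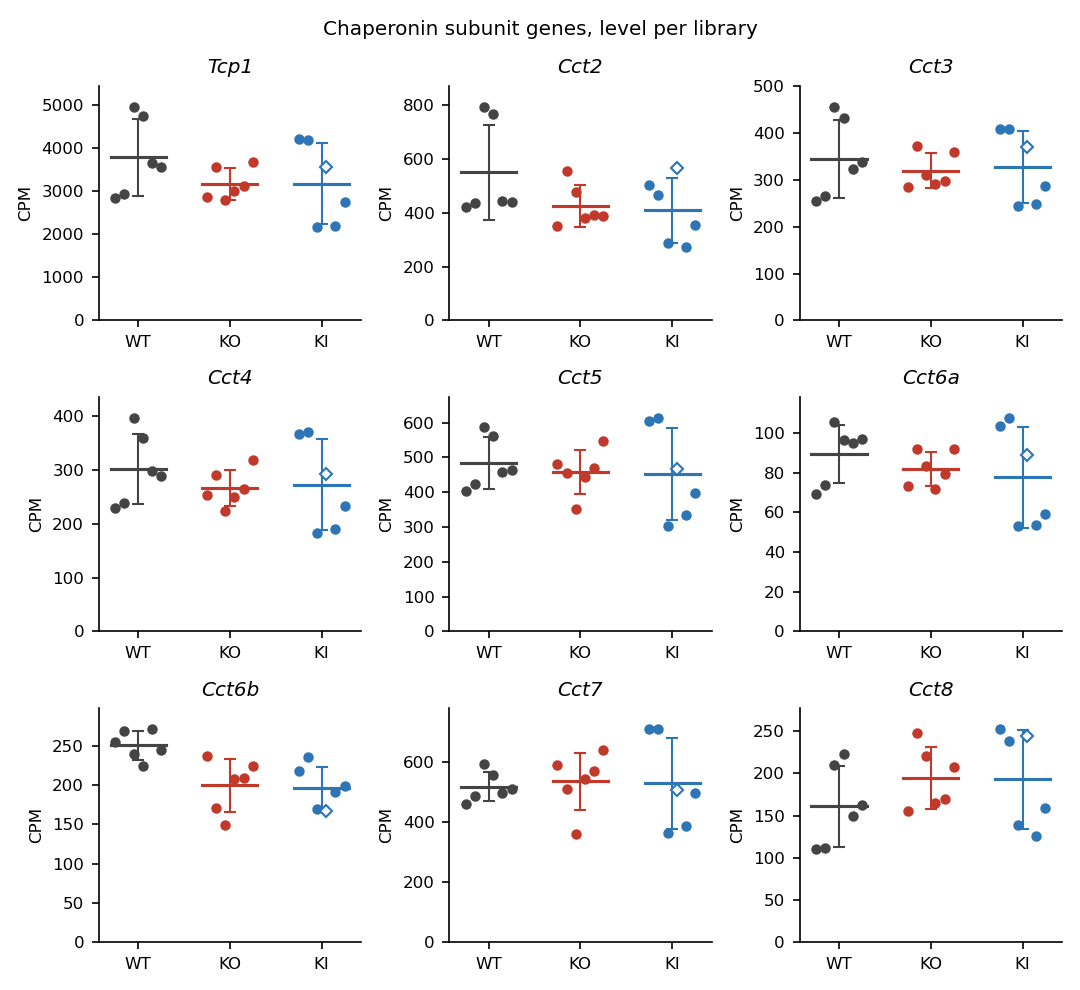
CPM of the 9 subunit genes in each library of WT, KO and KI on linear axes from 0, with the mean (line) and SD (bar) of 6 libraries and the library labelled KI 4 as an open diamond. The genotypes overlap in all 9 panels; Cct6b has the narrowest WT group, 223 to 271 CPM, with 5 of 6 KO and 5 of 6 KI libraries at or below 224 CPM.

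Cct6b, the testis zeta subunit, was at 223 to 271 CPM in WT with a median of 249, at 149 to 237 CPM in KO with a median of 208, and at 167 to 235 CPM in KI with a median of 195. It fell by 0.33 on the log2 scale in KO (standard error 0.13, adjusted p = 0.0662, edgeR) and by 0.35 in KI (standard error 0.13, adjusted p = 0.0463, edgeR). KO 3 (149 CPM) and KO 2 (170.5 CPM) were the lowest libraries of KO, the library labelled KI 4 (167 CPM) and KI 3 (169 CPM) the lowest of KI, and both groups overlapped with WT only near its lower end. The call depended on single libraries. The adjusted p in KO was 0.103 without WT 1, 0.121 without WT 2, 0.125 without WT 5, 0.147 without KO 2 and 0.140 without KO 3, and that in KI was 0.106 without WT 3 and 0.10003, just above the threshold, without the library labelled KI 4 (edgeR). With each close pair summed to 1 sample it was 0.259 in KO and 0.286 in KI (edgeR), with log2 fold changes of -0.34 and -0.35. With library totals in place of scaling factors, which moved the median of all genes to 0.15 in KO and 0.20 in KI, it was 0.213 and 0.205 (edgeR), with log2 fold changes of -0.21 and -0.21. Between genotypes, the markers of elongating spermatids (lower) and those of Leydig cells (higher) changed in the same mutants as Cct6b. In KI 3, KI 5 and KI 6 the Leydig sum (16.6, 13.4 and 17.7 CPM) lay within the WT range. Of 4 macrophage markers 2 rose in KO and 2 in KI. Of 6 spermatogonia markers 2 rose in KO and 1 in KI. Of 6 Sertoli markers 1 fell in KO and 2 in KI. Of 2 peritubular markers 1 rose and 1 fell in KO, and 1 fell in KI. No endothelial marker was called, and the 1 red blood cell marker tested rose in KI. Over all genes 29.9% were called in KO and 31.6% in KI. The RS marker Crem fell by 0.60 in KO (adjusted p = 0.00189, edgeR) and by 0.73 in KI (adjusted p = 0.000284, edgeR). It was the only RS marker of 6 called in KO, and 3 were called in KI. The spermatocyte marker Sycp3 rose by 0.74 in KO (adjusted p = 0.000689, edgeR) and by 0.75 in KI (adjusted p = 0.000559, edgeR). The sum of the 6 spermatocyte markers had medians of 891, 892 and 901 CPM in WT, KO and KI (3 rose and 1 fell in KO, 2 rose and 1 fell in KI). Within genotypes the order was mixed. KO 3 was the lowest of KO for Cct6b and for the elongating spermatid sum (1626 CPM). The library labelled KI 4 was the lowest of KI for Cct6b and the highest for that sum (3342 CPM). Without that library, KI 3 was the lowest of KI for both (169 and 2145 CPM). In WT the lowest library was WT 4 for Cct6b (223 CPM) and WT 6 for the sum (13901 CPM). The part of these cells in the change of Cct6b was not tested.

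Tcp1, the alpha subunit, did not pass the test at -0.26 on the log2 scale in KO (95% interval -0.66 to 0.15, adjusted p = 0.391, edgeR) and -0.25 in KI (-0.65 to 0.15, adjusted p = 0.390, edgeR). Without the library labelled KI 4 the value in KI was -0.29, and leaving out each library in turn gave -0.33 to -0.17 in KO and -0.35 to -0.11 in KI. The WT libraries alone spanned a 1.74-fold range. Cct2, the beta subunit (chromosome 10, 117051001 to 117063814), was at 421 to 792 CPM in WT with a median of 442, at 351 to 556 CPM in KO with a median of 391, and at 274 to 565 CPM in KI with a median of 410.3. WT 3 (792 CPM) and WT 4 (765 CPM) lay above every KO and KI library and the other 4 WT libraries did not. Its log2 fold change was -0.37 in KO (adjusted p = 0.214, edgeR) and -0.43 in KI (adjusted p = 0.141, edgeR). Without the library labelled KI 4 Cct2 was called in KI, at -0.54 (standard error 0.21, adjusted p = 0.0680, edgeR), and Cct6b was not. WT 3 and WT 4 are a close pair, and with close pairs also summed no subunit was called in KI.

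Cct3, the gamma subunit (chromosome 3, 88297116 to 88321767), was at 255 to 455 CPM in WT with a median of 330.3, at 286 to 373 CPM in KO and at 243 to 409.5 CPM in KI. Cct4, the delta subunit (chromosome 11, 22990519 to 23003780), was at 229.7 to 396 CPM in WT with a median of 293, at 224 to 319 CPM in KO and at 183 to 370.5 CPM in KI. For both genes the KO libraries lay inside the span of the KI libraries. Cct5, the epsilon subunit (chromosome 15, 31590800 to 31601804), was at 404 to 588 CPM in WT with a median of 462, at 352 to 548 CPM in KO and at 302 to 613 CPM in KI. Cct6a, the other zeta subunit, was at 69.2 to 105 CPM in WT with a median of 95.7, at 71.6 to 91.9 CPM in KO and at 53.1 to 107 CPM in KI. Cct7, the eta subunit (chromosome 6, 85451514 to 85468475), was at 463 to 593 CPM in WT with a median of 504, at 362 to 642 CPM in KO and at 363 to 710.2 CPM in KI. In 4 of these 5 genes, all but Cct3, the KI libraries spread the most, and the 3 genotypes overlapped in all 5. These 5 genes lay nearer to 0, with log2 fold changes between -0.20 and 0.049 in KO and KI and adjusted p of 0.441 or more (edgeR), and the signs of Cct3 and Cct5 turned positive with library totals in place of scaling factors. Their 95% intervals lay between -0.56 and 0.40, from a fit that treats the libraries of close pairs as separate, so they may be too narrow. Without the library labelled KI 4, the interval of Cct6a in KI reached down to -0.63 and that of Cct7 up to 0.42. Without the library labelled KI 4 the values in KI were -0.11 for Cct3, -0.16 for Cct4, -0.10 for Cct5, -0.25 for Cct6a and 0.042 for Cct7, and the range of each gene in KI was the same, since that library was at neither end. Cct8, the theta subunit (chromosome 16, 87483326 to 87495873), was the one subunit with a positive value of some size, 0.27 in KO (-0.16 to 0.70) and 0.26 in KI (-0.17 to 0.69), with adjusted p of 0.390 and 0.404 (edgeR). It was at 110.3 to 223 CPM in WT, compared with 156 to 248 CPM in KO and 125 to 252 CPM in KI, and the groups overlapped. Without the library labelled KI 4 the value in KI was 0.18, and leaving out each library in turn gave 0.18 to 0.39 in KO and 0.17 to 0.40 in KI.

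**Figure D4:**
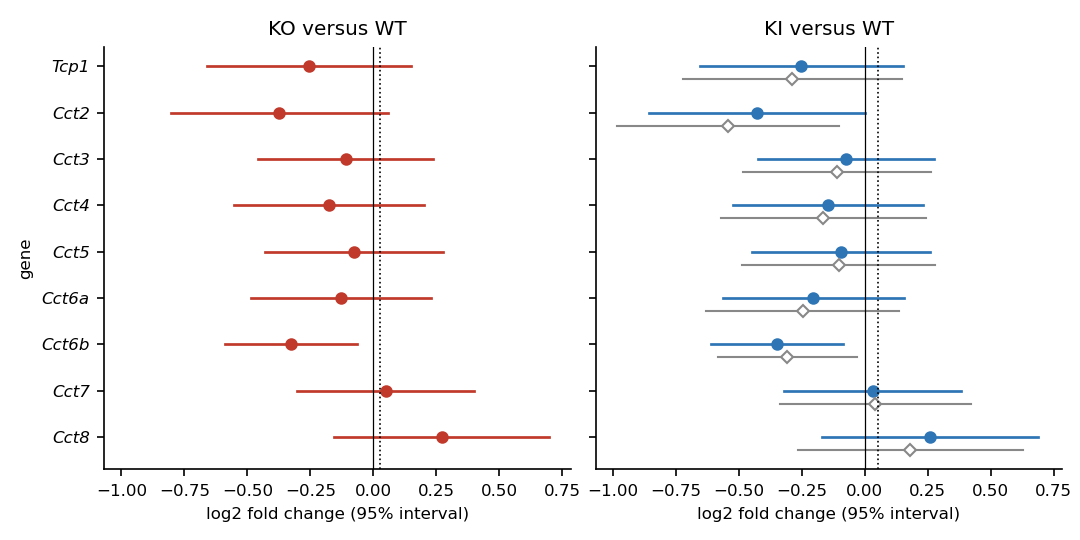
Log2 fold change of each subunit gene in KO and in KI against WT with its 95% interval, from edgeR over all 18 libraries (filled circles) and, for KI, without the library labelled KI 4 (grey open diamonds). The dotted line is the median of all tested genes (0.026 in KO, 0.054 in KI); the interval of Cct6b lies below 0 in both panels, as does that of Cct2 in KI without KI 4.

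KI and KO were compared to ask whether losing only the phosphorylated form differs from losing the whole protein. None of the 9 genes was called between them (0 of 9, and 0 at an unadjusted p under 0.05, edgeR; 0 also with DESeq2), with 0.0997% of all genes called and 0.00475% past 1 log2 unit. The log2 fold changes lay between -0.075 and 0.037. The interval of Tcp1 was -0.40 to 0.41 and that of Cct6b -0.28 to 0.24. Without the library labelled KI 4 the fold changes lay between -0.17 (Cct2) and 0.018 (Cct6b), with 0.522% of all genes called.

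The proportions of the subunit transcripts were examined next, as counts per 100 counts of Tcp1 in the same library, a measure that does not depend on how libraries are scaled. It was chosen after the levels had been seen and is given as a description, with no test. Cct8 was at 3.80 to 4.70 per 100 counts of Tcp1 in WT with a median of 4.17, at 5.45 to 7.87 in KO with a median of 5.58, and at 5.70 to 6.86 in KI with a median of 5.88. Every KO and every KI library lay above every WT library, and the same held without the library labelled KI 4, where KI lay between 5.70 and 6.38. The KO libraries with the highest values were KO 3 and KO 2.

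Cct3 was at 8.83 to 9.46 per 100 counts of Tcp1 in WT, at 9.54 to 11.1 in KO and at 9.75 to 11.4 in KI, and the groups did not overlap with WT either. Cct4 was at 7.56 to 8.13 in WT and 8.17 to 8.87 in KI, without overlap, while KO (7.99 to 8.84) overlapped with WT. In all, 2 of the 8 ratios did not overlap between KO and WT and 3 of 8 between KI and WT (4 of 8, with Cct7, without the library labelled KI 4), and none between KI and KO. The ratio of a gene to Tcp1 did not overlap in 13.1% of all tested genes for KO and in 11.6% for KI (13.3% without the library labelled KI 4). All 8 ratios share Tcp1 as their base, and its log2 fold change was -0.26 in KO and -0.25 in KI. Those of Cct3 (-0.11 and -0.073) and Cct4 (-0.18 and -0.14) were also below 0, so their higher ratios do not show higher levels. Libraries of a close pair were counted separately here. Cct2, Cct5, Cct6a and Cct6b overlapped in both. Cct6b, at 4.71 to 9.18 per 100 counts of Tcp1 in WT, was the most uneven within WT.

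**Figure D5:**
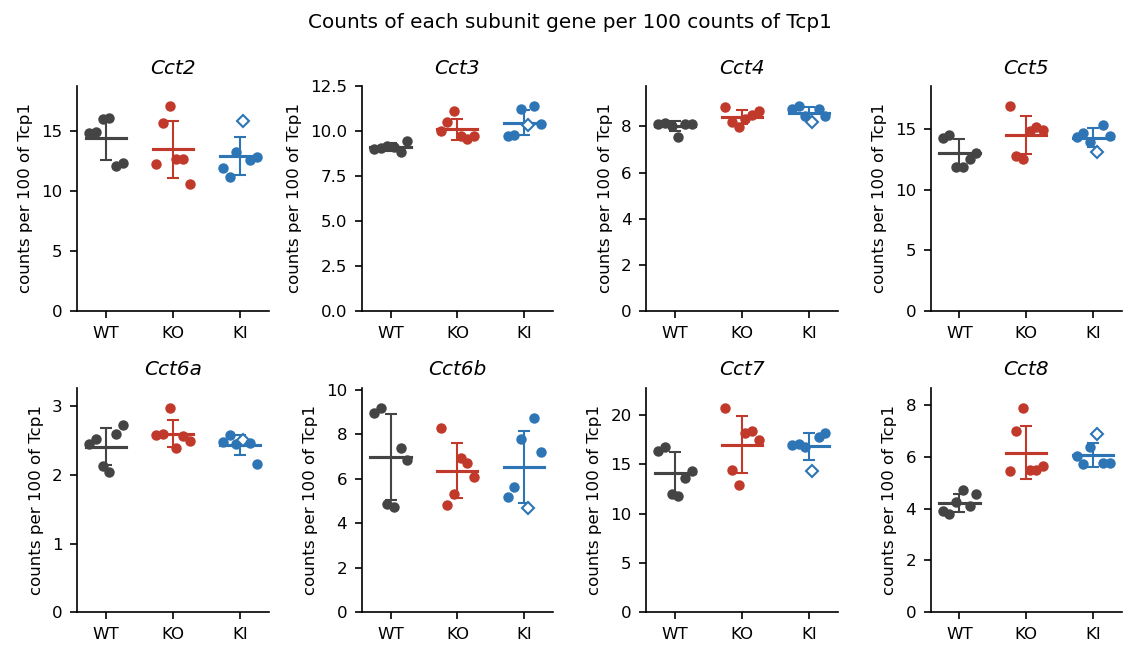
Counts of 8 subunit genes per 100 counts of Tcp1 in the same library, by genotype, on linear axes from 0, with the mean (line) and SD (bar) of 6 libraries and the library labelled KI 4 as an open diamond. For Cct8 the highest WT library is at 4.70 and the lowest KO and KI libraries at 5.45 and 5.70; for Cct6b the genotypes overlap widely.

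Of the 7 genes that start head to head with the subunits, 6 were tested, and 2 were called in KO and 2 in KI, beside 29.9% and 31.6% of all genes. Whether a pair moved together was not tested. Tsacc, beside Cct3, was at 67.0 ± 8.05 CPM in WT, compared with 30.6 ± 8.06 in KO and 29.0 ± 4.12 in KI (SD, n = 6), and its log2 fold change was -1.13 in KO (adjusted p = 1.82e-05, edgeR) and -1.21 in KI (adjusted p = 7.15e-06, edgeR). Cct3 itself was at -0.11 and -0.073. Psph, beside Cct6a, fell by 0.45 on the log2 scale in KO (adjusted p = 0.0205, edgeR) and by 0.36 in KI (adjusted p = 0.0625, edgeR). Zfp830, whose exon starts within 23 bases of Cct6b, was at 54.3 ± 6.34 CPM in WT, compared with 55.4 ± 6.23 in KO and 59.4 ± 8.87 in KI, with values of 0.029 and 0.13 that did not pass the test. Mrpl18 was at 39.3 ± 3.59 CPM in WT, far below Tcp1, and its log2 fold changes of -0.26 and -0.29, which did not pass the test, were near those of Tcp1 (-0.26 and -0.25). Fam173b and Pradc1 lay under 4 CPM in every library and B130034C11Rik under 0.44 CPM.

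The remaining genes around Tcp1 were low. Acat3, on the opposite strand and overlapping its 3′ end, was at 30.3 ± 6.75 CPM in WT, and the small nucleolar RNA genes inside Tcp1, Gm26130 and Snora20, were at 0 and at most 0.883 CPM. The nearest coding genes that do not overlap, Pnldc1 and Acat2, lay at 4.28 to 7.95 CPM and 1.45 to 3.29 CPM. Pnldc1 fell by 0.33 on the log2 scale in KO (adjusted p = 0.0825, edgeR) and was at -0.052 in KI, and Acat2 rose by 0.48 in KO (adjusted p = 0.0531) and 0.62 in KI (adjusted p = 0.0117, edgeR).

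TRiC receives its clients from prefoldin, a complex that holds newly made actin and tubulin. Of its 6 genes, 2 rose and 2 fell in KO, and the counts were the same in KI (1 and 2 without the library labelled KI 4), beside 29.9% and 31.6% of all genes called. With close pairs summed, 1 of them was called in KO and 1 in KI. The median log2 fold change was 0.20 in KO and 0.15 in KI. Pfdn2 was at 6.14 ± 0.938 CPM in WT, compared with 9.82 ± 1.37 in KO and 8.55 ± 1.67 in KI, a rise of 0.68 (adjusted p = 0.00137, edgeR) and 0.48 (adjusted p = 0.0174, edgeR; 0.37 without the library labelled KI 4) on the log2 scale. Vbp1 (prefoldin 3) fell by 0.69 in KO (adjusted p = 0.0349, edgeR) and by 0.68 in KI (adjusted p = 0.0365, edgeR). Pfdn5, the most abundant of them, was at 138 ± 27.5 CPM in WT, compared with 95.2 ± 31.3 in KO and 78.7 ± 19.3 in KI, and its log2 fold change was -0.54 (adjusted p = 0.0581, edgeR) and -0.81 (adjusted p = 0.00482, edgeR; -0.80 without the library labelled KI 4). Pfdn4 was the other gene called, and rose by 0.45 in KO (adjusted p = 0.0672, edgeR) and 0.45 in KI (adjusted p = 0.0637, edgeR), where the call was lost without the library labelled KI 4 (0.41, adjusted p = 0.114). Of the 3 genes of prefoldin-like proteins, Uri1 was called, lower in KI by 0.74 (adjusted p = 0.0176, edgeR), and was at -0.51 in KO (adjusted p = 0.105).

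Phosducin-like proteins bind TRiC and modulate its folding cycle. Of the 4 tested, Pdcl rose by 0.42 on the log2 scale in KO (adjusted p = 0.0468, edgeR) and 0.42 in KI (adjusted p = 0.0450, edgeR), from 3.75 ± 0.648 CPM in WT to 4.999 ± 0.611 in KO and 5.003 ± 0.822 in KI. It was the only gene of this list called, and none was with close pairs summed. Of the 3 chaperonin-like genes of Bardet-Biedl syndrome none was called with all libraries (1 fell in KI without the library labelled KI 4), and Bbs10, the most abundant, was at 31.1 ± 8.87 CPM in WT, compared with 32.6 ± 7.16 in KO and 36.7 ± 2.68 in KI. The chaperonin of mitochondria has other genes, Hspd1 and Hspe1. Both rose in KO, by 0.55 (adjusted p = 0.0539, edgeR) and 0.45 (adjusted p = 0.0957, edgeR), and in KI they were at 0.27 and 0.072; with close pairs summed neither was called. That difference between KI and KO was itself not called for either gene (adjusted p = 0.961 for both, edgeR).

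Of the genes of actin and tubulin, the main clients, cytoplasmic Actb fell in both mutants. It was at 552 ± 79.5 CPM in WT, compared with 355 ± 46.3 in KO and 346 ± 74.7 in KI, with log2 fold changes of -0.64 (adjusted p = 0.00336, edgeR) and -0.68 (adjusted p = 0.00186, edgeR; -0.71 without the library labelled KI 4). Actg1 did not pass the test (0.14 and 0.31). Of 15 tubulin genes tested (19 listed), 1 rose and 5 fell in KO, and 4 fell in KI, with medians of -0.31 and -0.14. Over all genes 16.4% rose and 13.5% fell in KO, and 16.1% and 15.4% in KI. With close pairs summed 3 tubulin genes were called in KO. Tuba4a was at 145 ± 36.6 CPM in WT, compared with 72.0 ± 17.8 in KO and 59.2 ± 18.1 in KI, with log2 fold changes of -1.01 (adjusted p = 0.000793, edgeR) and -1.29 (adjusted p = 5.43e-05, edgeR). The library labelled KI 4 was the highest of KI for this gene, and without it KI was at 52.5 ± 8.67 CPM (n = 5), a log2 fold change of -1.46. Tuba1c had log2 fold changes of -0.73 (adjusted p = 0.00496, edgeR) and -1.11 (adjusted p = 8.69e-05, edgeR; -1.32 without the library labelled KI 4), and Tuba1a, at 2.16 ± 0.974 CPM in WT, fell by 0.81 in KO (adjusted p = 0.0740, edgeR). The other genes called were Tuba8 and Tubg1, lower in both, and Tubb6, which rose by 0.60 in KO (adjusted p = 0.0926, edgeR). Tubulin genes are near copies of one another, and fragments that match several of them were not counted for any.

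Of 11 other known clients, 2 rose in KO and 3 in KI (2 without the library labelled KI 4), and 0 fell, beside 16.4% and 16.1% of all genes that rose. With close pairs summed 1 was called in KO and 1 in KI. Cyclin E (Ccne1), a classic client, went from 4.86 ± 0.566 CPM in WT to 9.80 ± 1.36 in KO and 8.58 ± 1.95 in KI, a rise of 1.02 (adjusted p = 2.63e-05, edgeR) and 0.82 (adjusted p = 0.000244, edgeR). The library labelled KI 4 was the highest of KI, and without it KI was at 7.80 ± 0.536 CPM (n = 5), a rise of 0.69. Mlst8, a WD-repeat subunit of mTOR complexes, rose by 0.46 (adjusted p = 0.0718, edgeR) and 0.43 (adjusted p = 0.0908, edgeR), the latter call being lost without the library labelled KI 4 (0.36, adjusted p = 0.179). Cdc20, an activator of the anaphase-promoting complex, rose in KI by 0.48 (adjusted p = 0.0338, edgeR) and was at 0.30 in KO (adjusted p = 0.199). Of the 6 cofactors that take tubulin on from TRiC, 1 fell in KO, and 2 fell and 1 rose in KI (3 fell and 0 rose without the library labelled KI 4). Arl2 had log2 fold changes of -0.48 (adjusted p = 0.0244, edgeR) and -0.64 (adjusted p = 0.00328, edgeR; -0.72 without the library labelled KI 4), Tbce fell in KI by 0.38 (adjusted p = 0.0634, edgeR), and Tbcd rose in KI by 0.33 (adjusted p = 0.0879, edgeR), a call lost without that library (adjusted p = 0.114). Of the 3 heat shock factors tested, Hsf5 rose in KI by 0.37 (adjusted p = 0.0978, edgeR), a call that was lost without the library labelled KI 4, where 1 of the 3 factors fell.

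Over these 10 lists, 17 of 55 tested genes were called in KO and 18 of 55 in KI, shares close to the 29.9% and 31.6% called over all genes, and 0 of 55 were called between KI and KO. With each close pair summed to 1 sample, 7 of the listed genes were called in KO and 7 in KI, beside 15.8% and 14.8% of the 23062 genes then tested. The counts are therefore no result about the folding pathway. The lists follow what is known of the folding pathway and were written with earlier results of these data known.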

How the data were processed

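RNA of round spermatids was sequenced in 18 libraries, 6 each from WT, KO and KI. The authors deposited 1 table of raw read counts per gene. Per the submitters' processing notes the tools were cutadapt 3.4, FastQC 0.11.9, Bowtie2, STAR 2.7.8a, SAMtools 1.12 and featureCounts of Subread 2.0.1, with mm10, and the file header gives strand-specific counting on GENCODE M18. By that header's settings, fragments matching several places or several genes were not counted.

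Counts were analysed with edgeR 4.0.16 in R 4.3.3: filterByExpr kept 21058 genes, TMM factors (0.915 to 1.10) scaled the libraries, and a quasi-likelihood fit over all 18 libraries gave each contrast, with Benjamini-Hochberg adjusted p under 0.1 as the threshold and glmTreat for a change over 1 log2 unit. Only the edgeR comparison of KO with WT was tried on simulated counts, drawn as independent libraries with no close pairs and no library against its label. The merged exon lengths used for levels per kb came with the deposited counts. Transcript lengths and overlaps came from GENCODE M21 on GRCm38, and promoters and start sites from the RefSeq table. Named genes were the 9 subunits, Ddx25, up to 3 called genes per list with the largest change in KO (the gene with the highest level where none was called), the genes overlapping or next to Tcp1, and the 5 most like it. The members, lists and tests were chosen with earlier results of these data known. The head-to-head genes, the ratios to Tcp1, Pfdn4, Actg1, Tuba8, Tubg1 and Tubb6 were chosen after their values were seen. DESeq2 1.42.0, other scalings and filters, a replicate block, summed close pairs and leaving out libraries were the alternatives.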

Additional observations from a re-analysis of the deposited data

Results flagged for a closer look

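Among 138 groups of 6 libraries (46 measures in 3 genotypes), 10 had 1 library far from the other 5 by Dixon's test, beside about 1 in 20 by chance. Relative to Tcp1, these were Cct4 in WT 4 (7.56 per 100 counts of Tcp1, against 8.001 to 8.13 in the other WT libraries), Cct6a in KO 3 (2.97), Cct6a in KI 6 (2.15) and Cct7 in the library labelled KI 4 (14.3). In CPM they were Ddx25 in the library labelled KI 4 (56.9, against at most 0.519 in the other KI libraries), Actb in KO 3 (266), Tbce in KO 2 (23.6), and Tuba4a (92.7), Tuba1c (23.03) and Ccne1 (12.4) in the library labelled KI 4. That library held 5 of the 10.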

How the results depend on the processing

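With 1 subunit called in KO and 1 in KI, the number called was 0 in KO with total counts only, no filter on low counts, an adjusted p under 0.05, close pairs summed, KO 2 and the library labelled KI 4 left out, or close pairs summed and the library labelled KI 4 left out, the last chosen after seeing the data. It was 0 in KI in 4 of these, total counts only, no filter and both settings with summed pairs. Leaving out each library gave 0 to 1 in KO and 0 to 1 in KI, and without the library labelled KI 4 the gene called in KI was Cct2. The counts past 1 log2 unit stayed at 0 in all 12 settings and 18 fits without 1 library. Of 810 log2 values recomputed, 706 kept direction and call, 84 changed sign (72 of them between KI and KO), 18 lost the call and 2 gained it, while 59 of 360 list counts and 24 of 60 levels per length moved. Over all genes the count called ran from 3655 to 7365 in KO, 2922 to 8113 in KI and 1 to 111 between KI and KO. The cause of these moves was not tested. With 6 libraries a genotype, standard errors of 0.13 to 0.21 limit how closely the changes of the subunits are bounded.

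Signs changed with total counts only for Cct3 (0.013 in KO, 0.066 in KI) and Cct5 (0.043 and 0.042). Between KI and KO, where all values were near 0, they changed with DESeq2 for Cct5 (0.019), Cct6b (0.015), Cct7 (0.018) and Cct8 (0.026), with its size factors in edgeR for Cct5 (0.019), Cct6b (0.017), Cct7 (0.019) and Cct8 (0.026), and with total counts only for Cct6b (0.0036), Cct7 (0.00023) and Cct8 (0.00035). With no filter they changed for Cct2 (0.0038), Cct5 (0.042), Cct6b (0.035), Cct7 (0.041) and Cct8 (0.050), and with only the genotypes compared for Cct2 (0.0034), Cct5 (0.043), Cct6b (0.041), Cct7 (0.043) and Cct8 (0.049). Summed pairs turned Cct7 (0.0023), and summed pairs without the library labelled KI 4 turned Tcp1 (-0.026), Cct3 (-0.0071), Cct6b (0.072) and Cct7 (0.033).

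Leaving out each library in turn, Cct7 ran from -0.0088 to 0.14 in KO, and in KI Cct3 ran from -0.15 to 0.075, Cct5 from -0.20 to 0.022 and Cct7 from -0.071 to 0.13. Between KI and KO the ranges were -0.092 to 0.094 for Tcp1, -0.17 to 0.036 for Cct2, -0.038 to 0.11 for Cct3, -0.075 to 0.12 for Cct4, -0.12 to 0.076 for Cct5, -0.19 to 0.014 for Cct6a, -0.095 to 0.048 for Cct6b, -0.12 to 0.070 for Cct7 and -0.10 to 0.086 for Cct8.

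Libraries of different genotypes share replicate numbers, but the numbers did not pair them: 7 of 18 correlations between same-numbered deviations were over 0.1, from -0.44 to 0.48. With the replicate number as a block, Cct6b was at -0.33 in KO (adjusted p = 0.0601, edgeR) and -0.36 in KI (adjusted p = 0.0434, edgeR), the number of subunits called stayed at 1 and 1, and the sign changed for Cct7 in KI (-0.013) and Tcp1 between KI and KO (-0.015).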
